A study of Mus musculus with 18 samples.

Results

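The genes described here encode the mitochondrial respiratory chain, measured in mesangial cells, podocytes and glomerular endothelial cells of Cd2ap mutant and wild-type mice. Members were the genes whose symbol began with Nduf, Uqcr or Atp5, was that of Sdha, Sdhb, Sdhc or Sdhd or began with it, or began with Cox4, Cox5, Cox6, Cox7 or Cox8. The rule found 92 genes among 22909 distinct symbols. Those symbols stood on 126 of the array's 28856 transcript clusters, the probe groups that each give 1 signal, and where a gene had several, the brightest on average across all 18 arrays was taken. By role the members were 7 core subunits, 29 accessory subunits and 4 assembly factors of complex I, 4 subunits and 2 assembly factors of complex II, 8 subunits of complex III, 11 common subunits of complex IV, 9 tissue-restricted forms and relatives of complex IV subunits, and 15 ATP synthase subunits. A further 3 symbols carried a matching prefix without being chain subunits: Atp5s, Atp5sl and Cox4nb, the last a gene of the endoplasmic reticulum membrane complex.

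The respiratory chain sits in the inner mitochondrial membrane. Complexes I and II take electrons from NADH and succinate, complex III passes them to cytochrome c, and complex IV hands them to oxygen. Complexes I, III and IV pump protons, and ATP synthase uses the resulting gradient to make ATP. The genes here are those of the nucleus, since the rule did not take in the subunits that mitochondrial DNA encodes. In the kidney the chain is best known for the proximal tubule, and in the glomerulus inherited defects of it and of coenzyme Q synthesis can injure podocytes.

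The mutant groups carried the Cd2ap tm1Shaw allele on B6.129X1 (genotype CD2AP-/-), which removes an adaptor protein of the podocyte slit diaphragm and serves as a model of focal segmental glomerulosclerosis, and all controls have the genotype wildtype in the sample records. The mesangial ones, however, are titled control where the others are titled wild type, and their columns in the data table carry the mark +:- where the other controls carry 2 plus signs. Mutant columns carry 2 minus signs, so by that notation the mark +:- would read as heterozygous. The records do not explain this, and the mesangial controls are called wild type here. If they were heterozygous, cell type and Cd2ap genotype could not be told apart in the wild-type pairs with mesangial cells. The mesangial mutation effect would then be set against heterozygotes. All animals were 5 weeks old. Cells were sorted from isolated glomeruli by green fluorescent protein, driven by Meis1-GFP in mesangial cells, by Tie2-GFP in endothelial cells and by a separate transgenic line in podocytes, so cell type and transgenic line cannot be told apart. Each of the 6 groups held 3 arrays, described as biological triplicates, and each column name of the table carries 1 number, while no source used here states whether an array was 1 animal or a pool. Arrays are called A, B and C within a group, in an order that carries no meaning. In such sorted cells fewer cells of a type and less RNA per cell cannot be told apart.

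Signals are intensities on a linear scale in arbitrary units, as the authors processed them, and a signal of 100 was their minimum for use. Median signal over all clusters was 62.8 to 71.6 per array, and the median over the members was 376 to 523. The sorts carried their own markers, with all 11 podocyte markers at or over 100 in each podocyte array and all 11 mesangial markers in each mesangial array, while 10 or 11 of 11 endothelial markers reached it in endothelial arrays. Mesangial wild-type array C stood apart, with a summed podocyte marker signal of 4804 against 1158 and 1322 in the other 2, a summed endothelial marker signal of 8742 against 3466 and 3839, a summed tubule marker signal of 2679 against 826 and 826, and Hbb-b1, a haemoglobin chain, at 4956 against 395 and 150. Wild-type podocyte arrays carried a summed mesangial marker signal of 4409 to 5239, where wild-type mesangial arrays had 12000 to 13248 and wild-type endothelial arrays 1126 to 1361. The Cd2ap cluster itself read 797 to 1512 in the mutant arrays and 757 to 2108 in the wild-type arrays. Mutant arrays lay below wild type in mesangial cells (797 to 870 against 922 to 1123) and podocytes (1478 to 1512 against 1546 to 2108). In endothelium they lay above it (891 to 966 against 757 to 859). With both directions and no mutant array near background, its signal did not check the genotype labels.

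Most of the chain was expressed at a like level in all 3 cell types. Of the 92 members, 79 had a signal of at least 100 in all 18 arrays and 85 in at least 1 array. The 7 that stayed below 100 everywhere were Atp5s, Atp5sl, Cox4i2, Cox7a1, Cox7b2, Cox8b and Cox8c, of which Cox7a1 and Cox8b are heart and muscle forms and Cox4i2 is a form best known from lung. Across the 3 wild-type groups, the ratio of the highest to the lowest group mean (geometric means) had a median of 1.19 over those 79 members, from 1.04 for Ndufa11 to 1.77 for Cox8a. It was under 1.5 for 73 of them (92.4%) and reached 2 for 0 of them. Over all 6653 clusters with 100 in every array the median ratio was 1.27, with 5155 (77.5%) under 1.5 and 492 at or over 2. The SD of log2 signal between replicate arrays had a median of 0.09 to 0.20 per group over the members, the highest in mutant podocytes.

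Of the catalytic and central subunits, most were not called between wild-type cell types. Ndufs1, an iron-sulfur subunit of complex I, had signals of 307, 278 and 325 in wild-type mesangial cells, 311, 297 and 322 in podocytes and 298, 273 and 291 in endothelium. Those 9 values overlapped across the cell types, and the podocyte minus endothelial log2 difference was 0.11 (95% interval -0.17 to 0.39, limma adjusted p = 0.576). Cox4i1, the common form of a complex IV subunit, had signals of 1048, 1138 and 1190 in mesangial cells, 1044, 962 and 966 in podocytes and 1130, 1039 and 1080 in endothelium. These overlapped between podocytes and endothelium, with a log2 difference of -0.13 (-0.34 to 0.09, adjusted p = 0.372), and lay lower in every podocyte array than in every mesangial array (-0.18, from -0.40 to 0.03, adjusted p = 0.211). Cox5a, another complex IV subunit, ranged from 360 to 487 over the 9 wild-type arrays with no group apart. Of the 10 central subunits fixed for naming (Ndufs1, Ndufv1, Sdha, Sdhb, Uqcrc1, Uqcrfs1, Cox4i1, Cox5a, Atp5a1 and Atp5b), 1 was called in any wild-type pair of cell types, beside 47.2% of all 13523 tested clusters. That was Atp5a1, the alpha subunit of ATP synthase, higher in podocytes (990, 943 and 1011) than in endothelium (840, 697 and 709) by 0.40 on the log2 scale (SE 0.14, adjusted p = 0.0339), and the call was lost without endothelial array B or C or any 1 podocyte array (adjusted p 0.0549 to 0.114). In the same pair Sdha, the flavoprotein of complex II, differed by 0.42 (adjusted p = 0.087), Ndufv1, which binds NADH, by 0.37 (adjusted p = 0.0674), Uqcrc1, a core protein of complex III, by 0.29 (adjusted p = 0.0709) and Atp5b by 0.24 (adjusted p = 0.0853), and none of these passed. Quantile normalization or leaving out endothelial array A made calls of Ndufv1, Uqcrc1 and Atp5b, leaving out podocyte array C one of Atp5b, and fitting the 6 arrays of the pair one of Sdha (adjusted p 0.0041 to 0.0498).

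Ndufa4l2 stood apart from the rest of the chain. It is a relative of the complex IV subunit Ndufa4 and is known as a gene induced by hypoxia. Its signal was 503, 511 and 277 in wild-type mesangial cells, 141, 140 and 107 in wild-type podocytes and 51.3, 49.4 and 47.8 in wild-type endothelium. The 3 groups did not overlap, and the endothelial values lay below 100 in every array, mutants included. The endothelial level is therefore known only as a bound, and the gene passed the filter through the other cell types. Set against that minimum of 100, the mesangial signal was at least 4.14-fold higher than the endothelial and the podocyte signal at least 1.28-fold higher. The adjusted p values of the fit, 6.52e-08 and 0.00027, are for the signals as given and do not test these bounds. Podocytes were lower than mesangial cells, with a log2 difference of -1.69 (SE 0.23, adjusted p = 6.23e-05). In the mutants the signals were 212, 155 and 228 in mesangial cells, 104, 55.9 and 71.6 in podocytes and 50.7, 47.5 and 49.3 in endothelium, so that 2 of the 3 podocyte values were also below 100. The podocyte sorts also carried mesangial markers, as given above, and their part in the podocyte level of Ndufa4l2 was not tested.

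Its counterpart Ndufa4 did not share this order and had a small range. Ndufa4 signal was 1478, 1531 and 1298 in wild-type mesangial cells, 1307, 1343 and 1269 in podocytes and 1638, 1555 and 1568 in endothelium. The endothelial arrays were the highest, and podocytes were lower than endothelium by a log2 difference of -0.28 (SE 0.09, adjusted p = 0.0247). That call was lost under quantile normalization (adjusted p = 0.517) and without endothelial array A or C or podocyte array A or C (adjusted p 0.0514 to 0.08). Cox6b2, the form of a complex IV subunit best known from testis, was likewise called in all 3 pairs. Its signal was 158, 139 and 170 in mesangial cells, 120, 96.1 and 124 in podocytes and 79.1, 80.6 and 70.6 in endothelium, again without overlap between groups and with endothelium below 100. Against the minimum of 100, mesangial cells were at least 1.55-fold higher than endothelium and podocytes at least 1.13-fold higher. The adjusted p values of the fit, 2.25e-05 and 0.00388, are for the signals as given and do not test these bounds. Cox6b2 passed the filter through the other cell types, and its podocyte value of 96.1 was also below 100. Podocytes lay below mesangial cells with a log2 difference of -0.46 (SE 0.13, adjusted p = 0.0194). The last call did not hold when mesangial wild-type array A or C or podocyte wild-type array B was left out (adjusted p = 0.0552, 0.0778 and 0.1). Its common counterpart Cox6b1 showed no called difference in those pairs, with log2 differences of 0.16, 0.09 and -0.07. Of the other paired forms, 0 of the 4 genes Cox6a1, Cox6a2, Cox7a2 and Cox7a2l were called between wild-type cell types. Over all tested clusters 47.2% were called in any such pair. The second cluster of Cox7a2l, which was not the one used, was called lower in podocytes than in endothelium (-0.31, adjusted p = 0.0378). The cluster used gave -0.30 there (adjusted p = 0.076).

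**Figure D1:**
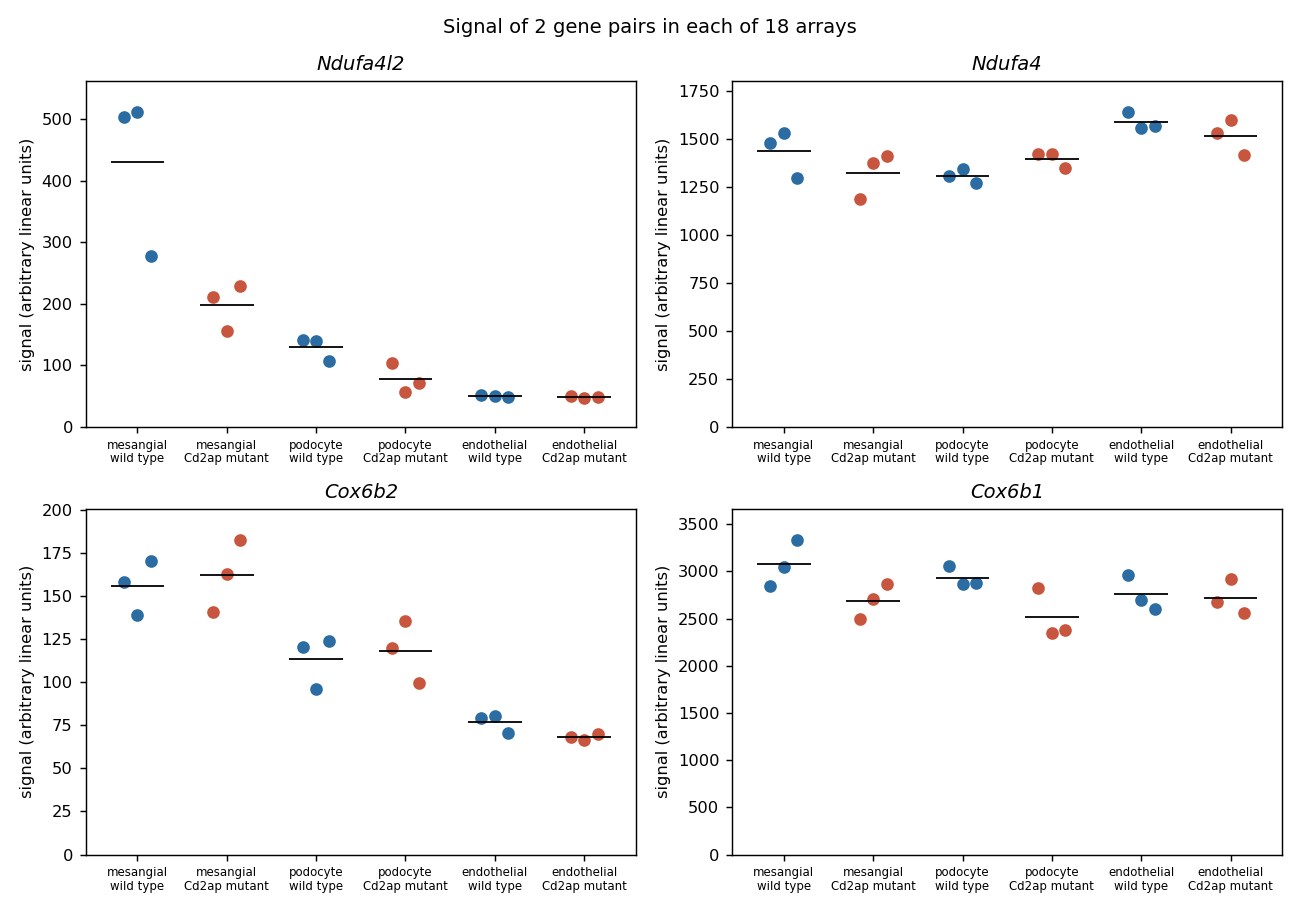
Signal (linear, arbitrary units, axis from 0) of 2 gene pairs in each of the 18 arrays by cell type, with wild-type arrays in blue, Cd2ap mutant arrays in red and the group mean as a black line. Ndufa4l2 and Cox6b2 are highest in mesangial cells and below 100 in endothelium, while Ndufa4 and Cox6b1 lie in a narrow band.

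Between wild-type podocytes and mesangial cells 5 of the 85 tested members were higher in podocytes and 4 were lower, beside 9.47% of all 13523 tested clusters called higher and 13.6% called lower. The members' median log2 difference was 0.00 with 49.4% positive, against -0.02 and 47.9% over all clusters, and quantile normalization moved these medians to 0.08 and 0.01. The higher members were Atp5g1, a form of the membrane ring subunit of ATP synthase, the complex I accessory subunits Ndufb4, Ndufa1 and Ndufa5, and the complex IV subunit Cox8a. The lower members were Ndufa4l2, Cox6b2 and the accessory subunits Ndufs4 and Ndufb9.

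All 5 of the higher members were also higher in podocytes than in endothelium, a comparison that shares the podocyte arrays, as were 67.3% of all clusters called higher in podocytes than in mesangial cells. Atp5g1 had signals of 314, 292 and 336 in podocytes, against 220, 209 and 215 in mesangial cells and 232, 227 and 248 in endothelium. Every podocyte array lay above the other 6, and the log2 differences were 0.55 (SE 0.10, adjusted p = 0.000708) and 0.41 (SE 0.10, adjusted p = 0.0039). The other ring genes, which encode the same mature protein, were not called in these pairs. Atp5g2 differed by 0.22 (-0.02 to 0.45) from mesangial cells and 0.21 (-0.03 to 0.44) from endothelium, and Atp5g3 by -0.03 (-0.32 to 0.26), which turned to 0.08 under quantile normalization, and 0.16 (-0.13 to 0.45), and the difference between the genes was not tested. Quantile normalization made a call of Atp5g2 against mesangial cells (adjusted p = 0.0386). Ndufb4 had signals of 854, 821 and 838 in podocytes, 593, 678 and 604 in mesangial cells and 626, 637 and 667 in endothelium, with podocyte differences of 0.43 (SE 0.11, adjusted p = 0.00808) and 0.38 (SE 0.11, adjusted p = 0.0108). The second clusters annotated to Atp5g1 and Ndufb4 gave 0.53 and 0.37 against mesangial cells, and 0.45 and 0.41 against endothelium.

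Ndufa5, Ndufa1 and Cox8a rose in steps from endothelium to mesangial cells to podocytes. Ndufa5 had signals of 462, 437 and 424 in endothelium, 600, 631 and 554 in mesangial cells and 771, 763 and 692 in podocytes. The groups did not overlap, and podocytes lay 0.75 above endothelium (SE 0.10, adjusted p = 2.42e-05) and 0.32 above mesangial cells (SE 0.10, adjusted p = 0.0287). Ndufa1 had signals of 1055, 822 and 995 in endothelium, 1125, 1220 and 1240 in mesangial cells and 1485, 1596 and 1607 in podocytes, a podocyte minus endothelial difference of 0.71 (SE 0.10, adjusted p = 6.34e-05). Cox8a had signals of 323, 313 and 297 in endothelium, 435, 409 and 400 in mesangial cells and 519, 602 and 536 in podocytes, the largest difference from endothelium among the members with 100 in all arrays, at 0.83 (SE 0.14, adjusted p = 0.000292) or 1.77-fold. The podocyte minus mesangial differences were 0.39 for Ndufa1 (adjusted p = 0.013) and 0.41 for Cox8a (adjusted p = 0.048). Leaving out any 1 of the 6 arrays ended the call for Cox8a (adjusted p 0.0625 to 0.155), as it did for Cox8a between mesangial cells and endothelium (adjusted p 0.0626 to 0.118). Without mesangial array A or C or podocyte array A or B the Ndufa5 call was lost (adjusted p 0.0623 to 0.109), and without mesangial array A or podocyte array C the Ndufa1 call (adjusted p = 0.0565 and 0.0503). Subtracting each array's median ended the calls of Ndufa5, Ndufa1 and Cox8a against mesangial cells (adjusted p = 0.112, 0.0509 and 0.112).

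Ndufs4 and Ndufb9 were low in podocytes. Ndufs4, an accessory subunit needed for a stable complex I, had signals of 566, 662 and 555 in podocytes, 929, 884 and 917 in mesangial cells and 855, 804 and 840 in endothelium. Every podocyte array lay below the other 6, with log2 differences of -0.62 (SE 0.13, adjusted p = 0.00206) from mesangial cells and -0.49 (SE 0.13, adjusted p = 0.00693) from endothelium. Ndufb9 had signals of 602, 499 and 449 in podocytes, against 756 to 794 in mesangial cells and 735 to 818 in endothelium, differences of -0.60 (SE 0.10, adjusted p = 0.00028) and -0.61 (SE 0.10, adjusted p = 0.000149). Accessory subunits of the same complex thus lay on both sides. Of the 7 core subunits 0 were called between podocytes and mesangial cells, beside 9.47% of all clusters higher and 13.6% lower. Core and accessory subunits were not tested against each other.

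Against endothelium more members were called. In wild-type podocytes 13 members were higher and 7 lower than in endothelium, where 14.7% and 18.6% of all tested clusters were called, and the median was 0.12 with 68.2% positive, against -0.01 and 48.3% over all clusters. In wild-type mesangial cells 10 were higher and 1 lower, beside 13.9% and 13.3% of all clusters, with a median of 0.11 against -0.02. Ndufa4l2 and Cox6b2, whose endothelial signal is below 100, are 2 of the higher members in each pair. Leaving out endothelial wild-type array B or C or mesangial wild-type array B or C cut the 11 mesangial calls to 6 or 7. The pairs share the 3 endothelial arrays. The core subunits of complex I had 7 of 7 positive differences for podocytes minus endothelium (median 0.30), where 48.3% of all clusters were positive, and 6 of 7 for mesangial cells minus endothelium (median 0.22), where 47.8% were, given as a description. Complex III had 6 of 8 and 7 of 8 positive, and 0 of its 8 genes passed the test in either pair. Leaving out endothelial wild-type array C cut the 20 calls in podocytes to 13.

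Ndufa2 and Ndufa13 were the members lowest in endothelium against both other cell types besides those already named. Ndufa2, a complex I accessory subunit, had signals of 484, 456 and 456 in endothelium, 616, 616 and 650 in mesangial cells and 694, 741 and 663 in podocytes. Endothelium lay below all 6 other arrays, with podocytes 0.59 higher (SE 0.11, adjusted p = 0.000617) and mesangial cells 0.43 higher (SE 0.11, adjusted p = 0.008). Ndufa13, an accessory subunit also known as the cell death regulator GRIM-19, had signals of 176, 148 and 167 in endothelium, 210, 234 and 203 in mesangial cells and 262, 229 and 233 in podocytes, differences of 0.56 (adjusted p = 0.000924) and 0.40 (adjusted p = 0.0134). The mesangial call was lost without endothelial or mesangial array B (adjusted p = 0.0693 each) and when its clusters were averaged (adjusted p = 0.485). Its cluster also carries the symbol Tssk6, so the 2 genes cannot be told apart there.

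A few members were called higher in endothelium than in podocytes. Ndufa8, a complex I accessory subunit, had signals of 320, 284 and 300 in endothelium, 226, 207 and 226 in mesangial cells and 216, 242 and 238 in podocytes. Endothelium lay above all 6 others, with differences of -0.46 (SE 0.10, adjusted p = 0.00261) for mesangial cells and -0.38 (SE 0.10, adjusted p = 0.00769) for podocytes. The complex IV subunit Cox7b had signals of 1506, 1504 and 1825 in endothelium and 1181, 1096 and 1087 in podocytes (-0.52, SE 0.14, adjusted p = 0.00922), and its second cluster gave -0.74, while its mesangial minus endothelial difference of -0.35 did not pass (adjusted p = 0.0757, or 0.0395 in a fit of the 6 arrays and 0.0405 with its clusters averaged). Atp5h, the stator subunit d of ATP synthase, had signals of 1141, 1047 and 1121 in endothelium and 829, 792 and 806 in podocytes (-0.45, SE 0.14, adjusted p = 0.0192), and its other 2 clusters gave -0.48 and -0.49, though the cluster used also carries 2 predicted genes. Its mesangial minus endothelial difference of -0.14 did not pass (adjusted p = 0.502), and neither did its podocyte minus mesangial difference of -0.31 (adjusted p = 0.12). The Cox7b call was lost without endothelial array C (adjusted p = 0.0515), the Atp5h call without endothelial array A or C or podocyte array B or C (adjusted p 0.0514 to 0.0582), and the podocyte call of Ndufa8 when its clusters were averaged (adjusted p = 0.0782).

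**Figure D2:**
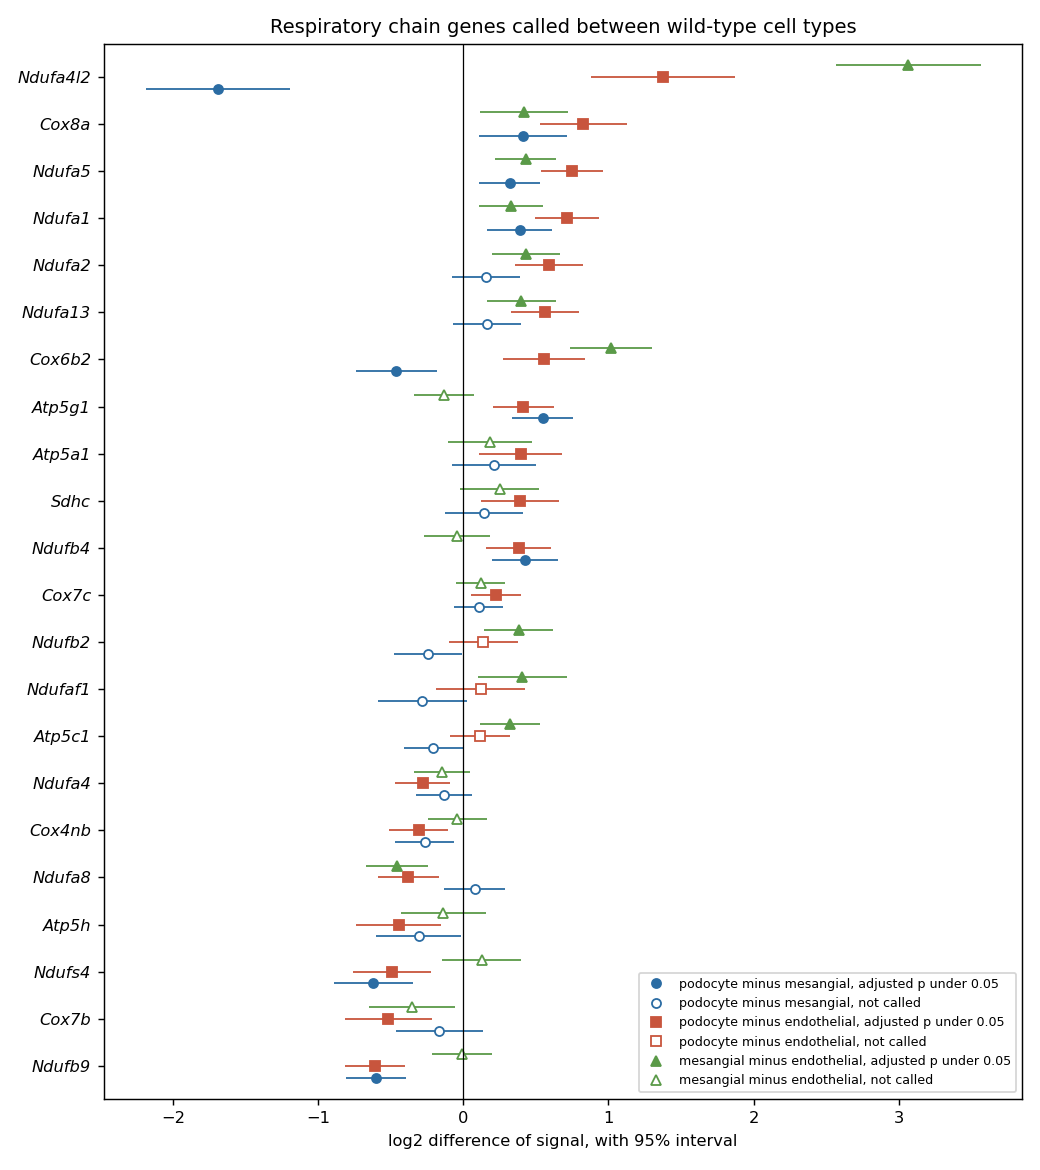
Log2 difference of signal (x axis, with 95% interval) between wild-type cell types for 22 of the 23 members called in at least 1 pair, ordered by the podocyte minus endothelial difference. Filled symbols have a limma adjusted p under 0.05, and open symbols do not. For Ndufa4l2 and Cox6b2 the differences from endothelium are set against signals below 100 and give no fold, and the members with 100 in all arrays stay within 0.83 of 0.

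Promoters are shown for 5 of these members, 3 that were high in podocytes and 2 that were low there, so that the letters of factors known for respiratory chain genes can be read beside the levels. Of the low ones, Atp5h was called against endothelium only. They run from 250 bases before to 50 after the transcript start, in the gene's own direction, from RefSeq on GRCm38.p6, and the first listed start was taken. Capitals mark GCGCANGCG (nuclear respiratory factor 1, NRF1) or CCGGAAG (ETS family, such as GABPA), searched on both strands. Cox8a lies at chr19:7217567-7217866, Ndufa5 at chr6:24527477-24527776, Ndufb4 at chr16:37654319-37654618, Ndufs4 at chr13:114388045-114388344 and Atp5h at chr11:115419870-115420169, all on the minus strand.
Cox8a: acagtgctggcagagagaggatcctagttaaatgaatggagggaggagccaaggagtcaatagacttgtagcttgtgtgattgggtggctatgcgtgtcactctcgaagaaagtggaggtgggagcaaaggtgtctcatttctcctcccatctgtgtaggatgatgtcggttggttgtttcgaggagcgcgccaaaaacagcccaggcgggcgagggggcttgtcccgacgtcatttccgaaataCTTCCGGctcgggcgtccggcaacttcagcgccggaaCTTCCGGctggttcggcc
Ndufa5: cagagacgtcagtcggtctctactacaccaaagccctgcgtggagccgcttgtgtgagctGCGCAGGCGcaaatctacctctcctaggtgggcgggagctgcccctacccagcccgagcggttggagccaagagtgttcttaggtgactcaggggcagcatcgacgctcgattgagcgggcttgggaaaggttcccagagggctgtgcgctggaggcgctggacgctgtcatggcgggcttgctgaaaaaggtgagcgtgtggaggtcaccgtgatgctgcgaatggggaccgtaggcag
Ndufb4: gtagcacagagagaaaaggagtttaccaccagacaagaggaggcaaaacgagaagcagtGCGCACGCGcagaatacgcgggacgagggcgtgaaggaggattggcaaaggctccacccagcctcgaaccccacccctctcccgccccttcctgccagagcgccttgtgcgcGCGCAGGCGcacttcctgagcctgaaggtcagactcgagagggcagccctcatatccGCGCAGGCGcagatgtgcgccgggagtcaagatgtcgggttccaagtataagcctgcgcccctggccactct
Ndufs4: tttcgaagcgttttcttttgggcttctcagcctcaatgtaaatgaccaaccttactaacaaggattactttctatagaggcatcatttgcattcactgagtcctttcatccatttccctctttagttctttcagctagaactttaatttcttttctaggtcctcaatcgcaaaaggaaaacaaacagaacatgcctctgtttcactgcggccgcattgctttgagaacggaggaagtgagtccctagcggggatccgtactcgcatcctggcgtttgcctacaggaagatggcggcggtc
Atp5h: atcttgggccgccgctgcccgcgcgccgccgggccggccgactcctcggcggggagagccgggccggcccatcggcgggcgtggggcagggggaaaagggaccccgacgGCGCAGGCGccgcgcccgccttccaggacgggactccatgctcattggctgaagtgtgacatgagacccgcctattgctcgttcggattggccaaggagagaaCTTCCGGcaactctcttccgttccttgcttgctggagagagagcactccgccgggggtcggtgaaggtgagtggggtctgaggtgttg
Ndufb4 held 3 NRF1 matches, Ndufa5 held 1, Cox8a held 2 ETS matches, and Ndufs4 held neither, while Atp5h, called lower in podocytes than in endothelium, held 1 of each. All 92 members were found in RefSeq and 76 had a promoter sequence, with Ndufa4l2 and Ndufb9 not among them. Of the 76, 21 (27.6%) held the NRF1 letters and 19 (25%) the ETS letters, beside 7.03% and 9.93% of the 27025 genes with a promoter. The letters ACGTG or GCGTG, read by hypoxia-inducible factors, were in 51 (67.1%) beside 46.7% of all, and TCAAGGTCA, read by oestrogen-related receptors, in 2 (2.63%) beside 0.466%. Of the 5 members higher in podocytes than in both other cell types, Atp5g1 and Ndufa1 held neither the NRF1 nor the ETS letters. A match describes these letters in this window and no more.

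No member was called between Cd2ap mutant and wild-type cells in the main fit of any of the 3 cell types. By limma with Benjamini-Hochberg adjustment over all tested clusters, 0 of 85 members were called in mesangial cells, 0 of 85 in podocytes and 0 of 83 in endothelium, beside 2.92%, 0.0578% and 1.29% of all clusters. At an unadjusted p under 0.05 there were 3 members higher and 7 lower in mutant mesangial cells, 2 and 3 in podocytes, and 2 and 1 in endothelium, beside 21.7%, 14.3% and 18.5% of all clusters in either direction. Under the screen the study's methods name (unadjusted p under 0.05 and fold over 1.5) Ndufa4l2 was the single member in mesangial cells and in podocytes and none passed in endothelium, its podocyte pass resting on 2 mutant values below 100, beside 5.19%, 5.61% and 3.82% of all clusters. The median SE of a member's log2 difference was 0.11, 0.15 and 0.10 in the 3 cell types, and the smallest adjusted p was 0.0852, 0.213 and 0.162. A limma fit of all 18 arrays called Ndufa4l2 in mesangial cells (adjusted p = 0.0166). It also called Ndufb2 and Ndufs1 in podocytes (adjusted p = 0.0381 and 0.0315). With an intensity trend and robust eBayes Atp5b was called in mesangial cells (adjusted p = 0.032).

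More members had negative than positive differences in mutant mesangial cells and podocytes, given here as a description. In mesangial cells 28.2% of the tested members were positive with a median of -0.08 (-0.15 to -0.04 when 1 array was left out), against 45.4% and -0.02 over all clusters. In podocytes 28.2% were positive with a median of -0.09, against 43.8% and -0.04, and that median was -0.01 under quantile normalization and -0.19 without mutant array A. In endothelium 62.7% were positive with a median of 0.04, which turned to -0.06 under quantile normalization, against 64.9% and 0.07. All 3 mutant values exceeded all 3 wild-type values for 4, 3 and 9 members in mesangial cells, podocytes and endothelium, beside 12.3%, 6.97% and 17.7% of all clusters, and were lower than all 3 for 12, 8 and 4 members, beside 16.3%, 14.3% and 7.34%.

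These signs rested on some arrays more than others. Relative to the wild-type mean of the cell type, the median log2 signal of the 79 members was -0.22, -0.10 and 0.04 in mutant mesangial arrays A, B and C and 0.08, -0.18 and -0.17 in mutant podocyte arrays A, B and C. Mutant mesangial array C and mutant podocyte array A thus lay on the other side of their wild-type mean from the other 2 arrays of their group. In mutant endothelium the values were 0.04, 0.07 and -0.01. The median of all 6653 clusters was -0.04, -0.02 and -0.01 in those mesangial arrays, -0.02, -0.08 and -0.12 in the podocyte arrays and 0.11, 0.08 and 0.04 in the endothelial arrays. The wild-type arrays ranged from -0.07 to 0.07. In mutant podocyte arrays B and C the ATP synthase subunits were at -0.39 and -0.25 and complex III at -0.27 and -0.17, while the median of the 4 complex II subunits was 0.05 and 0.09. The summed endothelial marker signal was 1429 and 990 there against 3012 in array A and 4751 to 6328 in wild-type podocytes. The summed erythroid marker signal was 807 and 328 against 5480 in array A and 3063 to 4069 in wild type, the summed smooth muscle marker signal 2040 and 839 against 2577 and 861 to 941, and the part of such other cells was not tested.

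**Figure D3:**
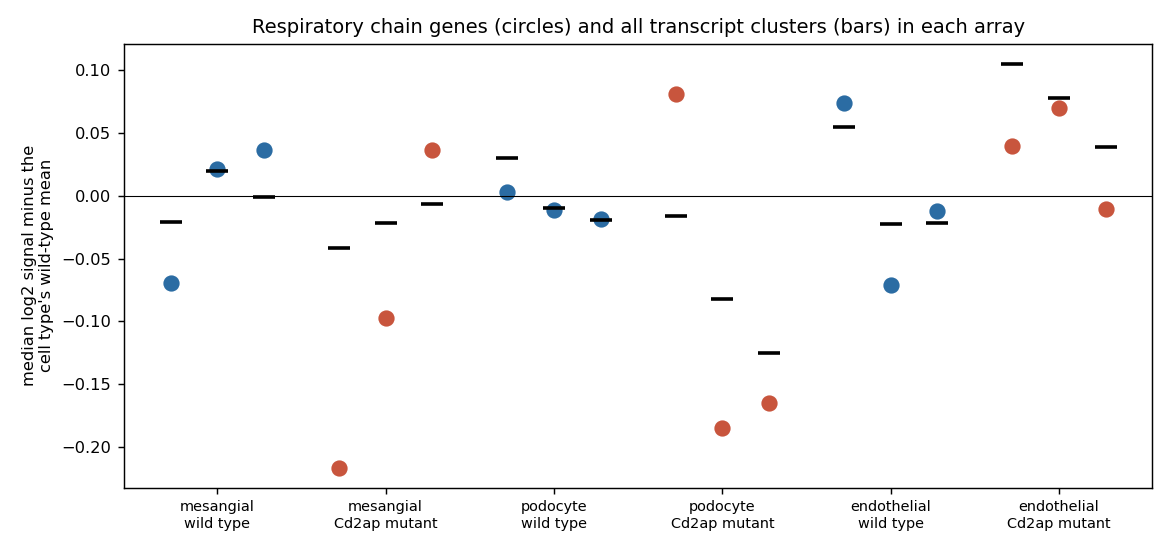
Median log2 signal of the 79 members with 100 in all arrays (circles, blue wild type and red Cd2ap mutant) and of all 6653 such clusters (black bars), each minus the mean of the wild-type arrays of the same cell type, for the 3 arrays of each group. Mutant mesangial array A and mutant podocyte arrays B and C lie lowest, from -0.22 to -0.17.

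Among the members Ndufa4l2 had the largest difference in mutant mesangial cells. Its signal was 212, 155 and 228 in the mutant arrays against 503, 511 and 277 in wild type. All mutant values lay below all wild-type values, with array C of the wild type nearest, and the log2 difference was -1.08 (SE 0.27, adjusted p = 0.0852), which missed the threshold. Wild-type array C is the one with podocyte, endothelial, tubule and haemoglobin signal, and without it the difference was -1.37 (adjusted p = 0.0182). In podocytes the mutant signal was 104, 55.9 and 71.6 against 141, 140 and 107, a difference of -0.78 (SE 0.24, adjusted p = 0.222) without overlap. With 2 of the 3 mutant values below 100, the size of this difference is uncertain. Leaving out mutant array A gave a call (adjusted p = 0.0464) against values that are all below 100, so no size is given for it. The summed mesangial marker signal of those podocyte arrays was 5008, 5040 and 2137 in the mutants and 5239, 4907 and 4409 in wild type, and its part was not tested. In endothelium Ndufa4l2 was 50.7, 47.5 and 49.3 in mutants and 51.3, 49.4 and 47.8 in wild type, too low for the test.

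Other members with small unadjusted p differed by less. Atp5b, the catalytic beta subunit of ATP synthase, was 1311, 1429 and 1341 in mutant mesangial cells and 1571, 1691 and 1698 in wild type. Those groups did not overlap, with a log2 difference of -0.28 (SE 0.08, adjusted p = 0.121), and Atp5a1 had -0.24 (SE 0.10, adjusted p = 0.214). The accessory subunit Ndufb2 was lower in mutants without overlap in both mesangial cells (-0.29, SE 0.10, adjusted p = 0.149) and podocytes, where it read 118, 117 and 103 against 154, 149 and 148 (-0.42, SE 0.12, adjusted p = 0.213). Ndufs1 was 253, 170 and 234 in mutant podocytes against 311, 297 and 322 in wild type (-0.52, SE 0.17, adjusted p = 0.245). The members with positive differences were Cox7a2l, a factor of respiratory supercomplex assembly, at 0.33 (adjusted p = 0.179), Cox6a2 at 0.26 (adjusted p = 0.212) and Atp5g1 at 0.20 (adjusted p = 0.205) in mesangial cells, and Ndufb4 at 0.31 (adjusted p = 0.293) and Ndufa7 at 0.36 (adjusted p = 0.329) in podocytes. In mutant endothelium Cox7b was 984, 1186 and 1350 against 1506, 1504 and 1825 (-0.46, SE 0.14, adjusted p = 0.162), and Ndufb10 was 560, 470 and 412 against 366 to 393 (0.34, SE 0.12, adjusted p = 0.205), both without overlap, and Ndufv3 differed by 0.20 (adjusted p = 0.265).

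**Figure D4:**
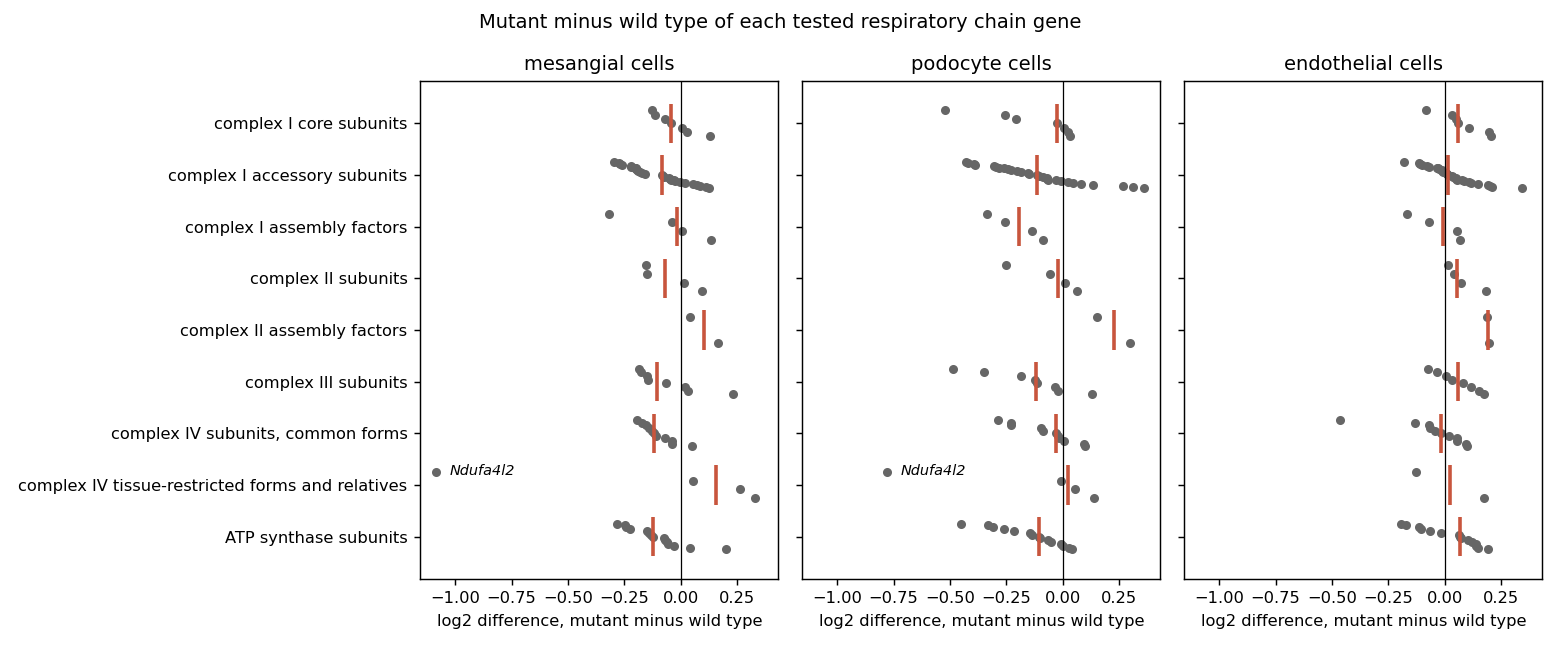
Log2 difference of signal, Cd2ap mutant minus wild type (x axis), of each tested chain subunit or assembly factor by role, in mesangial cells, podocytes and endothelial cells. Each point is 1 gene and the red line is the median of its role. Ndufa4l2 lies apart at -1.08 in mesangial cells, its -0.78 in podocytes is set against 2 of 3 mutant values below 100, and the other points lie between -0.52 and 0.36.

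The mutation effects of the cell types were then set against each other. With limma over all 18 arrays, 0 of 85 members had a called difference between the effects of podocytes and mesangial cells, of endothelium and mesangial cells, or of endothelium and podocytes, beside 0.717%, 1.07% and 2.11% of all clusters. At an unadjusted p under 0.05 there were 3 higher and 1 lower, 5 higher and 1 lower, and 7 higher and 1 lower, beside 12.0%, 15.9% and 23.4% of all clusters in either direction. The smallest adjusted p values were 0.291 for Ndufb4, 0.138 for Ndufa4l2 and 0.0828 for Ndufb10. The value for Ndufa4l2, called without mesangial wild-type array C (adjusted p = 0.026), restates its mesangial difference, since its endothelial signal was below 100 in both genotypes. Without mutant podocyte array A, 8 members had a called endothelial minus podocyte difference in effect, all positive: Uqcrc2 and Uqcrb of complex III, Ndufb10, Ndufs1, Ndufb5 and Ndufb2 of complex I, Cox5a and Ndufa4l2. Beside them 10.5% of all clusters were called in that direction, and Ndufa4l2 was again below 100 in endothelium.

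In the mutants the cell types were compared in the same way. Podocytes had 5 members higher and 12 lower than mesangial cells, beside 15% and 22.8% of all clusters, though quantile normalization gave 20 higher and 8 lower and turned the median from -0.05 to 0.08, and 14 higher and 13 lower than endothelium, beside 20.8% and 33.1%. Mesangial cells had 6 higher and 1 lower than endothelium, beside 10.8% and 17.9%. Ndufa4l2 and Cox6b2, below 100 in mutant endothelium, are among the higher members in both pairs with endothelium. They passed the filter through other groups, and the mutant podocyte mean of Ndufa4l2 was also below 100, at 77.2. The members' median was -0.06 for podocytes minus endothelium with 42.4% positive, where wild type had 0.12 and 68.2%, though it was 0.18 under quantile normalization and 0.01 without mutant podocyte array B, and 0.00 for mesangial cells minus endothelium with 50.6% positive, where wild type had 0.11 and 68.2%. Over all clusters in the mutants 42.6% and 43.9% were positive in these pairs. Of the calls in wild type, 8 of 9 (88.9%), 15 of 20 (75%) and 6 of 11 (54.5%) were also called in the mutants, in the same direction each time, beside 77%, 78.9% and 63.5% of the calls over all clusters, and they made up 47.1%, 55.6% and 85.7% of the mutant calls. The calls shared by the podocyte and mesangial pair were Atp5g1, Cox6b2, Cox8a, Ndufa1, Ndufa4l2, Ndufb4, Ndufb9 and Ndufs4. The shared calls of both pairs with endothelium include Ndufa4l2 and Cox6b2, whose endothelial signal was below 100 in both genotypes. Uqcrb, Uqcrh, Ndufb2, Ndufaf4 and Ndufs1 were called lower in mutant podocytes than in both other cell types and in neither wild-type pair. With all 18 arrays 0 of these had a called difference in mutation effect, and without mutant podocyte array A Uqcrb, Ndufb2 and Ndufs1 had one against endothelium. Over all clusters the calls lower in podocytes went from 13.6% and 18.6% in wild type to 22.8% and 33.1% in mutants. The share of all clusters with the pattern of these genes was not counted. Fitting 6 arrays in place of 18 cut the mutant calls from 17 to 5 for podocytes and mesangial cells. For podocytes and endothelium it cut them from 27 to 14. In those fits Ndufaf4 kept both of its calls, and Uqcrb and Uqcrh kept the call against endothelium only. Ndufb2 and Ndufs1 kept neither. Quantile normalization ended the calls of Uqcrh and Ndufs1 against mesangial cells.

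Other genes of energy metabolism were read between genotypes beside 2.92%, 0.0578% and 1.29% of all clusters called in mesangial cells, podocytes and endothelium. Of lists of other chain and carrier genes, chain assembly factors, mitochondrial biogenesis regulators, citric acid cycle, fatty acid oxidation, glycolysis and hypoxia response genes, 0 genes were called in mutant podocytes. In mutant mesangial cells the calls were Slc2a1, the glucose transporter GLUT1, at -0.55 (adjusted p = 0.0472) of 15 glycolysis genes tested and Epas1, which encodes HIF-2 alpha, at -0.46 (adjusted p = 0.046) of 14 hypoxia response genes tested. Leaving out any 1 of the 6 arrays ended the Epas1 call, and any but wild-type array A the Slc2a1 call (adjusted p 0.0724 to 0.162 over both). In the same comparison the 11 podocyte markers had a median of -0.62 and the 11 endothelial markers -0.42, and their part was not tested. In mutant endothelium it was Cpt1a, which brings fatty acids into mitochondria, at 0.84 (adjusted p = 0.0182) of 12 fatty acid oxidation genes tested, a call lost without mutant array A or C or wild-type array C (adjusted p 0.0551 to 0.0753). The summed mesangial marker signal there was 1516 to 1927 in mutants and 1126 to 1361 in wild type, without overlap, and its part was not tested. Between wild-type cell types more of these genes were called, as was so over all clusters, of which 47.2% were called in any such pair. Ppargc1a, the coactivator PGC-1 alpha, was called among 15 biogenesis regulators tested, with signals of 39.4, 41.2 and 42.2 in endothelium, 82.9, 230 and 181 in mesangial cells and 181, 172 and 92.5 in podocytes. All endothelial values lay below 100, and against that minimum podocytes were at least 1.42-fold higher (adjusted p = 0.000267) and mesangial cells at least 1.51-fold higher (adjusted p = 0.000192), with 1 array of each also below 100. Ppargc1a passed the filter through those cell types, where 14.7% and 13.9% of all clusters were called higher than in endothelium. The other regulators of that list are not described here. Of 15 glycolysis genes tested, 7 were higher and 1 lower in mesangial cells than in endothelium, beside 13.9% and 13.3% of all clusters, among them Pfkm (at least 2.19-fold, adjusted p = 2.42e-07) and Slc2a1 (at least 1.98-fold, adjusted p = 1.96e-06), both below 100 in every wild-type endothelial array. The lower one was Ldha (-0.67, adjusted p = 0.00285). Of 15 hypoxia response genes tested, 4 were higher and 2 lower in podocytes than in mesangial cells, beside 9.47% and 13.6% of all clusters, among them Vegfa (957, 974 and 1012 in podocytes against 99.4, 86.6 and 300.3 in mesangial cells, the last being array C, adjusted p = 4.94e-06), Egln3 (at least 1.62-fold higher, adjusted p = 0.00791, below 100 in every wild-type mesangial array) and Epas1 (-0.96, adjusted p = 0.00454), where Ndufa4l2 was lower in podocytes.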

How the data were processed

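RNA of sorted glomerular cells was amplified once (NuGEN Ovation Pico V2) and hybridised to Affymetrix Mouse Gene 1.0 ST arrays. The authors deposited 1 linear intensity per transcript cluster and array, which the file headers call raw signal values and the sample records RMA values. The series' design text names exon arrays and the GeneBASE software instead, and the header and the study's methods, which name Gene 1.0 ST arrays, were followed. RMA normalizes between arrays, which can hide a shift of all genes at once. A further 18 per-sample columns hold the same values as log2, median-centred signals and were not used. Columns were matched to groups, not to single samples, because their names match no title.

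The intensities were log2 transformed, and those clusters that reached 100 in any array of the fit were tested by limma (R 4.3.3, limma 3.58.1) with eBayes and Benjamini-Hochberg adjustment at 0.05. Genotype comparisons used the 6 arrays of a cell type, and all others used 18 arrays. P-values measure the spread between the arrays of a fit, whose number limits the precision. In the fits of 18 arrays that spread was pooled over the 6 groups. It was widest in mutant podocytes (median SD of log2 signal 0.20 over the members, against 0.09 to 0.14 in the other groups). Adjusted p values of comparisons with mutant podocytes in those fits may therefore be too small. An adjusted p given beside an at-least fold is that of the signals as given and does not test the bound. The pipeline was tested for some of the comparisons on simulated data with known changes. Those changes were larger than most differences given here, and every group had the same spread. The simulation therefore does not bear on smaller changes or on groups of unequal spread. Named members were 10 central subunits, the pairs of tissue forms, and the 5 largest called changes in each direction (or the 3 of smallest p where fewer than 3 were called). The members, lists and tests were chosen with earlier results of these data known. For 25 members there were several clusters, up to 6, and for 8 the cluster used carried another symbol as well. Some items are not reported here. The alternatives were other filters, scalings, sets of arrays, choices of cluster and leaving out each array.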

Additional observations from a re-analysis of the deposited data

How the results depend on the processing

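Of 1825 values of the genes named for a comparison under the alternatives run, 1695 kept their side of the threshold, 103 lost a call, 25 gained one and 2 changed direction, both of the uncalled Atp5g3 in wild-type podocytes minus mesangial cells (from -0.028 to 0.0826 under quantile normalization, and -0.0828 to 0.0472 when 1 array was left out, positive without podocyte wild-type C). The count of called members for the mutation effect in endothelium, and for its podocyte minus mesangial difference, was 0 throughout. Under the unadjusted p with a fold over 1.5, the counts were 1 for mesangial genotype, 1 for podocyte genotype, 1 and 2 for the differences of effect between endothelium and mesangial cells and between endothelium and podocytes, 3, 6 and 2 for the wild-type podocyte minus mesangial, podocyte minus endothelial and mesangial minus endothelial pairs, and 5, 9 and 3 for the same pairs in mutants. Fitting the other set of arrays (18 for genotype, 6 for cell types) gave 1 call (Ndufa4l2) for mesangial genotype, 2 (Ndufb2 and Ndufs1) for podocyte genotype, and 5 and 14 for podocytes against mesangial cells and endothelium in mutants. An intensity trend with robust eBayes gave 1 call (Atp5b) for mesangial genotype. Subtracting array medians gave 3 calls (Ndufb10, Ndufb2 and Ndufs1) for the endothelial minus podocyte difference of effect. Quantile normalization gave 11 calls for mutant mesangial cells against endothelium and 28 for mutant podocytes against mesangial cells, 20 higher and 8 lower, 13 of them shared. Quantile normalization also turned the median of the members from -0.06 to 0.18 for mutant podocytes minus endothelium (0.01 without podocyte mutant B), from -0.05 to 0.08 for mutant podocytes minus mesangial cells, from 0.00 to 0.08 for the same pair in wild type, from -0.01 to 0.05 for the podocyte minus mesangial effect, from 0.16 to -0.03 for the endothelial minus podocyte effect and from 0.04 to -0.06 for endothelial genotype, which was -0.00038 without endothelial wild-type B. With it the median of all clusters moved from -0.11 to 0.02 and from 0.11 to 0.00 for the first pair and the endothelial minus podocyte effect, and subtracting array medians moved them to -0.23 and 0.21. Leaving out 1 array gave 0 to 1 calls for mesangial genotype (1 without wild-type C), 0 to 1 for podocyte genotype (1 without mutant A), 0 to 1 for the endothelial minus mesangial effect (1 without mesangial wild-type C), 0 to 8 for the endothelial minus podocyte effect (8 without podocyte mutant A), 5 to 8 for wild-type podocytes minus mesangial cells (5 without mesangial wild-type A), 13 to 20 for wild-type podocytes minus endothelium (13 without endothelial C), 6 to 12 for wild-type mesangial cells minus endothelium (6 or 7 without endothelial B or C or mesangial B or C), and 13 to 24, 20 to 31 and 5 to 8 for these pairs in mutants. The cause of these shifts was not tested. No paired analysis was possible because the replicate numbers run from 1 to 18 and the groups share none. With 3 arrays a group and no detection call, differences of members near a signal of 100 are the least certain, and clusters that match pseudogenes may mix transcripts.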
